A study of Mus musculus with 8 samples.

Results

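The genes described here are 34 genes of the cellular response to low oxygen and of glycolysis, measured by RNA sequencing in MC3T3-E1, a mouse line of pre-osteoblasts from the skull. They were taken by gene symbol from a table of 28901 genes, with earlier results of these data known, and all 34 were found there. They comprise the oxygen-regulated subunits of hypoxia-inducible factor (Hif1a and Epas1), the oxygen-sensing prolyl hydroxylases Egln1 and Egln3, the secreted factors Vegfa and Adm, and other targets of the factor (Car9, Bnip3, Ndrg1, Ankrd37 and Ak4). The collagen prolyl hydroxylase subunits P4ha1 and P4ha2 follow, and then 21 genes of glucose entry, glycolysis and the fate of pyruvate. In the low-count filter of edgeR's filterByExpr 33 of the 34 passed, Adm being the exception, as did 17038 genes of the whole table.

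Hypoxia-inducible factor (HIF) is a transcription factor of an alpha subunit and a beta subunit. In normal oxygen the prolyl hydroxylases encoded by the Egln genes modify the alpha subunit, which is then bound by the VHL protein and degraded. In low oxygen the alpha subunit accumulates, pairs with the beta subunit and binds DNA at a short core of letters in the promoters and enhancers of its targets, among them Vegfa, Egln3, Car9, Bnip3 and most genes of glycolysis. In bone the pathway is known for linking osteoblasts to blood vessel growth through VEGF, and osteoblasts are known to draw much of their energy from glycolysis ending in lactate.

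The 8 libraries, all of the same cell line, form 4 groups with n = 2 each. Their titles are Brd, control, NM-Brdi and also NM-DMSO. The design text describes exposure to 10 µM I-BRD9, which blocks the bromodomain of the chromatin remodelling subunit BRD9, or to its solvent DMSO, and an osteogenic medium with dexamethasone, ascorbic acid and a glycerol phosphate. The labels do not say what the Brd and control cultures received, what NM stands for, which libraries had the osteogenic medium, or what oxygen level was used, so the groups keep their titles. Whether libraries with the same title were grown as separate cultures is not labelled, and every p-value here rests on the spread of the libraries alone, which may be technical.

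Each library held between 16918182 and 24555028 counts. Levels are given as CPM, counts relative to the library total after TMM scaling, and 1 CPM stood for 16.4 to 26.1 counts. The NM-DMSO libraries stood apart from each other: 28.1% of tested genes and 7 of the 33 tested members differed over 1.5-fold between them, while in Brd 1 member did so, in control 1 and in NM-Brdi 0. Osteoblast lineage markers, 7 genes including Runx2, Sp7 and Col1a1, summed to 9370 to 9500 CPM in Brd, 9300 to 10000 CPM in control, 6330 to 6590 CPM in NM-Brdi and 7890 to 9600 CPM in NM-DMSO. Most of each sum came from the collagen genes Col1a1 and Col1a2, with means of 3583 and 5201 CPM in Brd and 3731 and 4416 CPM in control. The sums therefore say little about the other markers. Of these 7 markers, 4 were called lower in Brd against control and 5 in NM-Brdi against NM-DMSO, and their part in the results below was not tested. Markers of other cell types were near 0 in every library, with summed levels of at most 2.23 CPM for 3 haematopoietic, 0.402 CPM for 2 endothelial, 0.476 CPM for 3 epithelial and 0.287 CPM for 1 skeletal muscle gene. A gene was called higher or lower where its adjusted p was under 0.05 in edgeR's quasi-likelihood test with Benjamini-Hochberg adjustment over all tested genes. Fold changes are log2 ratios with a standard error (SE) derived from the test, the absolute ratio divided by the square root of the test's F statistic. In RNA from whole cultures, fewer cells that express a gene and less of its RNA per cell cannot be told apart.

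The promoters of the members were searched for the core letters of the HIF binding site, the letters that the factor is known to bind. The search took ACGTG and GCGTG on both strands, so that a site on the other strand reads CACGT or CACGC, in the 250 bases before each transcription start given by RefSeq on GRCm38.p6. RefSeq promoters were matched for 32 of the 34 members and not for Ndrg1 and Epas1. Some genes have several listed starts, and a gene was counted if any of them had a match. At least 1 match was present in 29 of the 32 (90.6%), against 7866 of 14563 genes of the table with a RefSeq promoter (54.0%). The 3 with no match at any listed start were Eno2, Gpi1 and Tpi1. Aldoa, Hk1, Pdk1, Pfkm, Pkm and Vegfa also had a listed start without a match. For Vegfa this was the start at the 5′ end of the gene, and its matches lay before a start inside the gene. A gene with more listed starts had more chances of a match, and the shares were not adjusted for this. Stretches of 80 bases are shown for 5 members on which the comparisons turn, namely Bnip3 (chr7:138909507-138909586, minus strand), Egln3 (chr12:54204045-54204124, minus strand), Pdk1 (chr2:71873106-71873185, plus strand), Ak4 (chr4:101419209-101419288, plus strand) and Ldha (chr7:46845724-46845803, plus strand). They run 5′ to 3′ along the gene's strand, and capitals mark the matches.
Bnip3: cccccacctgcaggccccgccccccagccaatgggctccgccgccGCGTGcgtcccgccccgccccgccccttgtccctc
Egln3: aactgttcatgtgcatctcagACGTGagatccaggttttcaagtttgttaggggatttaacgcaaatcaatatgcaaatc
Pdk1: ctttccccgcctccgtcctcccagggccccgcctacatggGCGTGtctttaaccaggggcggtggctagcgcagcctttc
Ak4: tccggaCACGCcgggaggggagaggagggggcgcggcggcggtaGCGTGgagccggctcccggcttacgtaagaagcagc
Ldha: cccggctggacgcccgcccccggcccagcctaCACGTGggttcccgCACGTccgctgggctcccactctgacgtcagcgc
In the Ldha stretch the first match lies in CACGTG, a palindrome that is also the E-box of other transcription factors and counts on both strands, so both kinds of site overlap there. A match is a description of the letters and not of binding.

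Close copies elsewhere in the genome, mostly processed pseudogenes, were found for 10 of the members, and these copies hold counts in the table. For Gapdh, a glycolytic dehydrogenase often used as a reference gene, only 13211 of the 701842 counts summed over the gene and 87 copies stood in its own row, a share of 1.88%. The own-row share was 5.82% for Pgk1, 6.89% for Eno1, 26.0% for Pkm and 27.7% for Ldha. It was 48.9% for Pgam1, 50.2% for Bnip3, 64.9% for Tpi1, 78.4% for Aldoa and 85.0% for Ak4. How reads that fit several places were counted is not given in the sources used here, so the level of these genes is uncertain and the main results on them are also given with the copies' counts added. The share moved with 1 library: in NM-DMSO replicate 1 it was the highest of the 8 libraries for 9 of the 10 genes, and the lowest for Aldoa. Eno1, for example, held 10.6% of its summed counts in its own row in NM-DMSO replicate 1, against 5.08% to 6.81% in the other 7 libraries. For Pkm the share was 38.0% in that library and 22.0% to 25.5% in the others. The exons of Pkm also share 767 nt with Gm49759 on the same strand, which held 5195 counts against 66858 for Pkm. Reads of that stretch cannot be told apart.

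**Figure D1:**
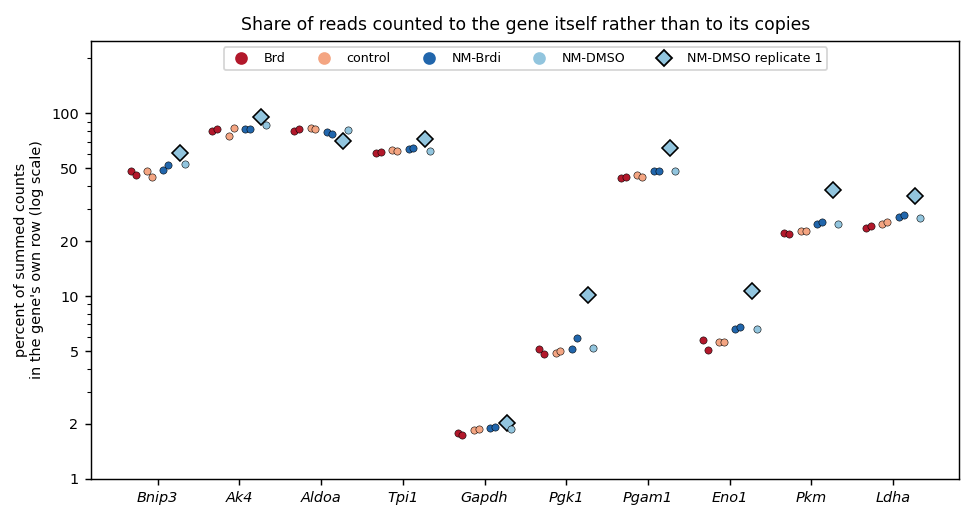
Share of the summed counts of a gene and its aligned copies that stood in the gene's own row (percent, log scale), for the 10 members with copies. Each point is a library and the diamond is NM-DMSO replicate 1, which has the highest share for every gene except Aldoa, where it has the lowest, and reaches 10.1% for Pgk1 against 4.83% to 5.92% in the other libraries.

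In Brd against control, the comparison that sets an inhibitor-named group against the group called control, 6 members were higher and 0 were lower. The higher genes were the alpha subunit Epas1, the oxygen sensor Egln3, the targets Car9, Bnip3 and Ndrg1, and, from the fate of pyruvate, Pdk1, a kinase that inhibits the pyruvate dehydrogenase complex. None of the 18 genes from glucose entry to pyruvate was called. At an unadjusted p under 0.05 there were 12 members, against 20.2% of all tested genes. DESeq2's Wald test called 8 members higher, adding Ak4 and Pfkfb3, and 0 lower, against 8.80% of all genes in either direction. Over all tested genes, 3.13% were higher and 3.45% lower in this comparison. The median log2 fold change of the 33 tested members was 0.15, against 0.00 over all tested genes, and 24 of the 33 were positive.

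Hif1a, the widely expressed alpha subunit, had 222 and 216 CPM in the Brd libraries, 204 and 190.2 CPM in control, 202 and 206 CPM in NM-Brdi, and 218 and 208 CPM in NM-DMSO. Its levels spanned a narrow range and its fold change in Brd against control was 0.15 ± 0.09 (adjusted p = 0.42). Epas1 (HIF-2 alpha, chr17:86753700-86833410, plus strand) had 16.4 and 17.1 CPM in the Brd libraries, 7.56 and 6.49 CPM in control, 5.06 and 4.33 CPM in NM-Brdi, and 1.94 and 3.07 CPM in NM-DMSO. Both Brd libraries lay above every other library, and the NM-DMSO libraries lay lowest. Epas1 was 2.38-fold higher in Brd relative to control, a log2 fold change of 1.25 ± 0.22 (adjusted p = 0.0178). Per kilobase of the longest coding transcript, Hif1a averaged 46.4 ± 1.01 in Brd, 41.7 ± 2.00 in control, 43.2 ± 0.586 in NM-Brdi, and 45.1 ± 1.58 in NM-DMSO (CPM per kb, mean ± SD, n = 2). On the same scale Epas1 averaged 3.03 ± 0.0920 in Brd, 1.27 ± 0.137 in control, 0.851 ± 0.0933 in NM-Brdi, and 0.454 ± 0.146 in NM-DMSO, so Hif1a had the higher level per length in all 4 groups.

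Egln1, the main oxygen-sensing prolyl hydroxylase, had 95.7 and 96.6 CPM in the Brd libraries, 90.8 and 84.3 CPM in control, 99.0 and 90.4 CPM in NM-Brdi, and 91.9 and 82.4 CPM in NM-DMSO. These values overlapped between most groups, and Brd against control gave 0.14 ± 0.10 (adjusted p = 0.565). Egln3 (chr12:54178981-54203860, minus strand), a hydroxylase that is itself a HIF target, had 4.82 and 5.98 CPM in the Brd libraries, 2.62 and 2.74 CPM in control, 10.7 and 8.38 CPM in NM-Brdi, and 5.26 and 6.64 CPM in NM-DMSO. Here control was lowest and NM-Brdi highest. In Brd against control Egln3 was higher, with a log2 fold change of 1.01 ± 0.24 (adjusted p = 0.0481).

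Among the targets, Car9 (chr4:43506966-43513729, plus strand), a carbonic anhydrase at the cell surface, had 3.78 and 6.21 CPM in the Brd libraries, 1.59 and 1.49 CPM in control, 2.53 and 1.95 CPM in NM-Brdi, and 1.19 and 1.25 CPM in NM-DMSO. The Brd libraries were highest and further apart from each other than those of any other group, and Car9 was low throughout, with 393 counts over the 8 libraries. It was 3.23-fold higher in Brd relative to control (1.69 ± 0.32, adjusted p = 0.0223). The antisense gene Gm12454 overlaps 214 nt of its exons and held 154 counts, and the strand setting of the counting is not given, so reads of the pair cannot be told apart.

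Bnip3 (chr7:138890836-138909519, minus strand) codes for a protein that marks mitochondria for removal. It had 30.1 and 31.8 CPM in the Brd libraries, 16.9 and 17.4 CPM in control, 30.8 and 28.8 CPM in NM-Brdi, and 23.1 and 20.7 CPM in NM-DMSO. Control was lowest, with no overlap with any other group, and Bnip3 was higher in Brd than in control by 0.85 ± 0.12 (adjusted p = 0.00804). With the counts of its 3 copies added, the difference was 0.82 ± 0.12 (adjusted p = 0.00959). Ndrg1 (chr15:66929318-66969640, minus strand), a stress- and hypoxia-induced gene, had 25.7 and 24.3 CPM in the Brd libraries, 12.8 and 12.3 CPM in control, 22.6 and 21.9 CPM in NM-Brdi, and 17.3 and 12.7 CPM in NM-DMSO. Both Brd libraries lay above both control libraries and the log2 fold change was 0.99 ± 0.16 (adjusted p = 0.0135).

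Pdk1 (chr2:71873224-71903858, plus strand) had 36.5 and 33.5 CPM in the Brd libraries, 25.05 and 24.4 CPM in control, 49.3 and 48.3 CPM in NM-Brdi, and 35.1 and 35.9 CPM in NM-DMSO. NM-Brdi was highest, control was lowest, and the Brd and NM-DMSO libraries overlapped. Brd exceeded control by 0.50 ± 0.11 (adjusted p = 0.0322), a call that was lost with no filter on low counts (adjusted p = 0.0559). Vegfa (chr17:46016993-46032369, minus strand), the growth factor for blood vessels, had 206 and 209.6 CPM in the Brd libraries, 169 and 164 CPM in control, 70.2 and 69.0 CPM in NM-Brdi, and 51.7 and 61.3 CPM in NM-DMSO. Both Brd libraries lay above both control libraries, but the difference of 0.32 ± 0.11 (adjusted p = 0.137) was not called.

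**Figure D2:**
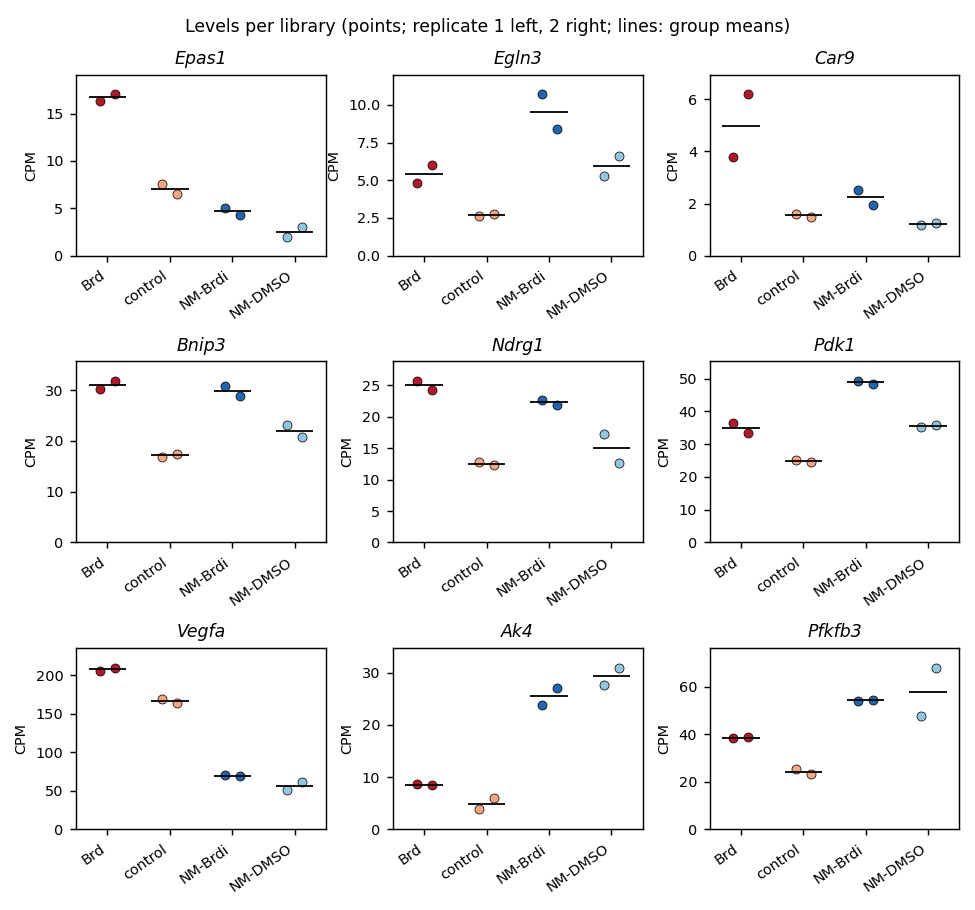
Level (CPM, linear scale from 0) of 9 members in each library, points for libraries with replicate 1 at the left, lines for group means. Epas1, Car9 and Vegfa were highest in Brd, while Ak4 stood at 23.9 to 31.0 CPM in the groups with the prefix NM and at 3.86 to 8.66 CPM in the others.

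Ak4 (chr4:101419277-101466995, plus strand), a mitochondrial adenylate kinase, had 8.66 and 8.51 CPM in the Brd libraries, 3.86 and 6.01 CPM in control, 23.9 and 27.0 CPM in NM-Brdi, and 27.6 and 31.0 CPM in NM-DMSO. Brd lay above control without overlap, with a difference of 0.81 ± 0.21 (adjusted p = 0.0707) that was not called, or 0.77 ± 0.20 (adjusted p = 0.0658) with its copy added. Ankrd37, a small ankyrin-repeat gene induced by HIF, had 0.488 and 0.632 CPM in the Brd libraries, 0.309 and 0.834 CPM in control, 0.919 and 1.03 CPM in NM-Brdi, and 1.89 and 1.60 CPM in NM-DMSO, and 163 counts in all. Its Brd and control libraries overlapped. Ankrd37 also shares exon bases with Ufsp2 and Lrp2bp on the other strand, and Ufsp2 held 4192 counts, so the origin of so few reads is uncertain. Adm, the peptide adrenomedullin, was not tested, with 2 and 2 counts in Brd, 1 and 2 in control, and 0 in all 4 NM libraries, where a count of 0 allows a level of up to 0.115 to 0.149 CPM (3 counts, counting error only).

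P4ha1 and P4ha2 code for the catalytic subunits of the enzyme that hydroxylates collagen. P4ha1 had 176 and 176 CPM in the Brd libraries, 145 and 141 CPM in control, 207 and 193 CPM in NM-Brdi, and 208 and 146 CPM in NM-DMSO, and P4ha2 had 88.4 and 89.6 CPM in the Brd libraries, 77.5 and 82.4 CPM in control, 58.7 and 57.9 CPM in NM-Brdi, and 60.9 and 53.0 CPM in NM-DMSO. Both genes lay above control in Brd, by 0.30 ± 0.16 (adjusted p = 0.359) and 0.15 ± 0.10 (adjusted p = 0.485), and neither was called.

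In glucose entry and the first steps of glycolysis, 0 of 9 members were called in Brd against control. The glucose transporter Slc2a1 had 55.6 and 50.9 CPM in the Brd libraries, 48.9 and 48.0 CPM in control, 47.0 and 43.2 CPM in NM-Brdi, and 46.6 and 42.0 CPM in NM-DMSO, and its difference was 0.14 ± 0.11 (adjusted p = 0.586). Hexokinase Hk1 had 97.3 and 95.8 CPM in the Brd libraries, 102 and 101 CPM in control, 96.6 and 93.5 CPM in NM-Brdi, and 96.4 and 103 CPM in NM-DMSO, with a difference of -0.07 ± 0.09 (adjusted p = 0.797). Hexokinase Hk2, the isoenzyme known as a HIF target, had 51.6 and 47.1 CPM in the Brd libraries, 45.3 and 54.5 CPM in control, 43.2 and 44.5 CPM in NM-Brdi, and 42.5 and 50.1 CPM in NM-DMSO, with a difference of -0.01 ± 0.13 (adjusted p = 0.981). The transporter and the hexokinases stayed within a narrow band over the 8 libraries. Per kilobase, Hk1 averaged 22.6 ± 0.259 in Brd and 23.6 ± 0.157 in control, and Hk2 averaged 8.96 ± 0.576 in Brd and 9.05 ± 1.18 in control (CPM per kb, mean ± SD, n = 2).

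Pfkfb3 and Pfkfb4 make and break fructose 2,6-bisphosphate, the activator of phosphofructokinase. Pfkfb3 had 38.3 and 38.7 CPM in the Brd libraries, 25.2 and 23.1 CPM in control, 54.1 and 54.6 CPM in NM-Brdi, and 47.6 and 68.0 CPM in NM-DMSO. Control was lowest and Brd lay between it and the NM groups, but the difference of 0.67 ± 0.17 (adjusted p = 0.0601) between Brd and control was not called. Pfkfb4 had 9.40 and 8.28 CPM in the Brd libraries, 10.8 and 12.3 CPM in control, 10.4 and 9.85 CPM in NM-Brdi, and 10.0 and 12.8 CPM in NM-DMSO, with Brd below control, at -0.38 ± 0.18 (adjusted p = 0.288). Of the phosphofructokinase genes, Pfkl (liver type) had 34.96 and 38.6 CPM in the Brd libraries, 23.7 and 25.8 CPM in control, 42.0 and 41.5 CPM in NM-Brdi, and 36.7 and 26.0 CPM in NM-DMSO. Its Brd libraries lay above its control libraries by 0.57 ± 0.17 (adjusted p = 0.0988). Pfkm (muscle type) and Pfkp (platelet type) differed by 0.13 ± 0.16 (adjusted p = 0.763) and -0.08 ± 0.12 (adjusted p = 0.823). Gpi1, glucose phosphate isomerase, had 24.96 and 22.7 CPM in the Brd libraries, 19.95 and 23.0 CPM in control, 35.7 and 33.6 CPM in NM-Brdi, and 50.2 and 30.1 CPM in NM-DMSO, and its difference was 0.15 ± 0.23 (adjusted p = 0.827).

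From aldolase to pyruvate kinase 0 of 9 members were called in Brd against control, and their fold changes ran from -0.18 in Eno1 to 0.59 in Eno2. Eno2, the neuronal enolase, had 5.37 and 4.60 CPM in the Brd libraries, 3.75 and 2.86 CPM in control, 6.32 and 6.67 CPM in NM-Brdi, and 4.81 and 4.05 CPM in NM-DMSO, with a difference of 0.59 ± 0.22 (adjusted p = 0.187). Aldoa, the main aldolase, had 94.2 and 93.3 CPM in the Brd libraries, 76.3 and 74.9 CPM in control, 151 and 133 CPM in NM-Brdi, and 136 and 102 CPM in NM-DMSO, and Brd lay above control by 0.31 ± 0.14 (adjusted p = 0.291). Aldoc, with 99 counts in all, had levels under 1 CPM in every library. Gapdh had 72.0 and 69.3 CPM in the Brd libraries, 68.0 and 67.8 CPM in control, 92.9 and 87.1 CPM in NM-Brdi, and 99.7 and 77.4 CPM in NM-DMSO in its own row, and with its copies added it had 4010.2 and 4001 CPM in the Brd libraries, 3664 and 3605 CPM in control, 4920.5 and 4546 CPM in NM-Brdi, and 4933 and 4118 CPM in NM-DMSO. Its fold change in Brd against control was 0.06 ± 0.13 in its own row and 0.14 ± 0.12 (adjusted p = 0.596) with the copies. Pgk1, phosphoglycerate kinase, had 34.5 and 32.9 CPM in the Brd libraries, 33.9 and 33.3 CPM in control, 47.0 and 51.9 CPM in NM-Brdi, and 74.7 and 36.0 CPM in NM-DMSO, with a difference of 0.00 ± 0.29, or -0.01 ± 0.09 (adjusted p = 0.985) with the copies. Pgam1, phosphoglycerate mutase, had 445 and 457 CPM in the Brd libraries, 497 and 460.1 CPM in control, 553 and 544 CPM in NM-Brdi, and 662 and 494 CPM in NM-DMSO, with a difference of -0.09 ± 0.14 (adjusted p = 0.842). Of the other enzymes with copies, Tpi1, Eno1 and Pkm gave -0.16 ± 0.26 (adjusted p = 0.835), -0.18 ± 0.26 (adjusted p = 0.805) and -0.04 ± 0.20 (adjusted p = 0.957). With the copies added, Aldoa gave 0.34 ± 0.18 (adjusted p = 0.372) and Pgam1 -0.06 ± 0.09 (adjusted p = 0.829). Tpi1, Eno1 and Pkm then gave -0.14 ± 0.21 (adjusted p = 0.826), -0.13 ± 0.11 (adjusted p = 0.601) and -0.01 ± 0.09 (adjusted p = 0.992).

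Ldha, the lactate dehydrogenase subunit that turns pyruvate into lactate, had 164 and 168 CPM in the Brd libraries, 233 and 231 CPM in control, 302 and 306 CPM in NM-Brdi, and 502 and 327 CPM in NM-DMSO. Both Brd libraries were below both control libraries and below all others. The difference was -0.49 ± 0.18 (adjusted p = 0.175), and with its 5 copies added it was -0.42 ± 0.10 (adjusted p = 0.0586), so neither was called. Slc16a3, the lactate exporter MCT4, was low, with 1.65 and 1.38 CPM in the Brd libraries, 1.29 and 1.25 CPM in control, 1.26 and 1.55 CPM in NM-Brdi, and 1.09 and 0.891 CPM in NM-DMSO, and differed by 0.25 ± 0.32 (adjusted p = 0.772).

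The 6 calls of Brd against control rested on all 4 libraries of the pair. When any one of these 4 was left out, these calls were lost, as were most calls over all genes of the table. The fold changes stayed positive over all single omissions, and that of Car9 varied most. Their ranges were 1.14 to 1.36 for Epas1, 0.85 to 1.16 for Egln3, 1.29 to 2.01 for Car9, 0.81 to 0.89 for Bnip3, 0.95 to 1.04 for Ndrg1 and 0.44 to 0.56 for Pdk1. Without either NM-Brdi library the calls of Egln3, Car9 and Pdk1 were lost. Without NM-DMSO replicate 1, 14 members were higher and 3 lower, where 31.5% of all genes were called in either direction, and without NM-DMSO replicate 2 the counts were also 14 and 3, where 31.2% were. In these fits NM-DMSO is a single library, adds nothing to the spread and is assumed to vary like the other groups. The 8 further genes higher without replicate 1 were Hif1a, Vegfa, Ak4, P4ha1, Pfkl, Pfkfb3, Aldoa and Eno2, and the 3 lower ones were Ldha (-0.49), Tpi1 (-0.17) and Pfkfb4 (-0.39). Without regard to a test, 20 of the 33 members had both Brd libraries above both control libraries and 6 had both below, shares to be read beside 32.9% and 33.2% of all tested genes.

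In NM-Brdi against NM-DMSO, the pair whose titles name an inhibitor and its solvent, the members with the largest positive values were again Epas1, Car9, Egln3 and Ndrg1, but 0 members were called in either direction by edgeR's quasi-likelihood test. Over all tested genes 0.816% were higher and 1.05% lower. At an unadjusted p under 0.05 there were 10 members, against 21.6% of all tested genes, and DESeq2's Wald test called 2 members higher, Epas1 and Pdk1, and 0 lower, against 6.30% of all genes in either direction. The median of the members was 0.02, against 0.00 over all tested genes.

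Epas1 was above NM-DMSO in both NM-Brdi libraries, with a log2 fold change of 0.90 ± 0.24 (adjusted p = 0.117). Pdk1 gave 0.46 ± 0.10 (adjusted p = 0.0739). Bnip3 gave 0.44 ± 0.12 (adjusted p = 0.112), and with its copies added 0.61 ± 0.12 (adjusted p = 0.0549). These 3 genes had no overlap between the groups. Egln3 gave 0.68 ± 0.21 (adjusted p = 0.152), Car9 0.87 ± 0.33 (adjusted p = 0.19), Ndrg1 0.57 ± 0.16 (adjusted p = 0.128) and Vegfa 0.30 ± 0.11 (adjusted p = 0.179), also without overlap. On the glycolysis side Ldha gave -0.45 ± 0.18 (adjusted p = 0.211) and Pkm -0.42 ± 0.19 (adjusted p = 0.254), with NM-Brdi below NM-DMSO in each. With the copies added they gave -0.25 ± 0.10 (adjusted p = 0.223) and -0.09 ± 0.09 (adjusted p = 0.559). Both libraries lay above for 11 members and below for 6, while 23.3% and 24.3% of all tested genes did so.

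The values of this pair depended on which NM-DMSO library was kept. With 1 of them left out, the comparison is with a single NM-DMSO library, the spread comes from the other groups, and the calls are no replicate check of NM-DMSO. Without NM-DMSO replicate 1, 10 members were higher and 1 lower, where 14.2% of all genes were called. Ndrg1 (0.82), Pdk1 (0.45) and Bnip3 (0.53) were then among the higher and Pfkfb3 (-0.32) was the lower. Without NM-DMSO replicate 2, 6 were higher and 8 lower, where 54.3% of all genes were called. Tpi1, triose phosphate isomerase, turned from -0.34 with all libraries to 0.23 without NM-DMSO replicate 1, and Pgk1 from -0.16 to 0.46. These are values of the own rows. With the copies added and all libraries kept, Pgk1 gave 0.32 ± 0.09 (adjusted p = 0.137) and Tpi1 -0.23 ± 0.21 (adjusted p = 0.521).

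**Figure D3:**
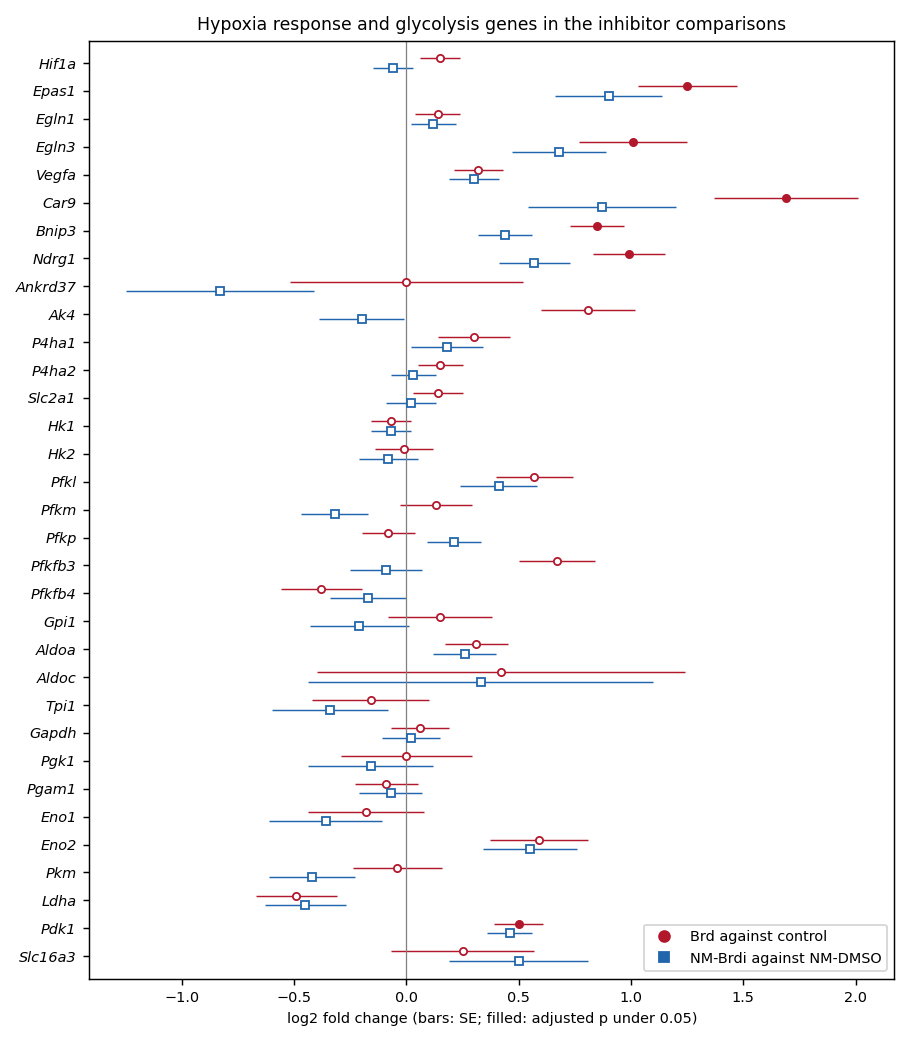
Log2 fold change of each tested member (bars, SE) in Brd against control (red circles) and NM-Brdi against NM-DMSO (blue squares), filled where the adjusted p was under 0.05. The 6 filled points, all in Brd against control, run from 0.50 in Pdk1 to 1.69 in Car9, and the points of Slc2a1, Hk1, Hk2 and Gapdh lie near 0 in both pairs.

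Whether the pairs differed was tested as the interaction, the fold change of Brd over control minus that of NM-Brdi over NM-DMSO. For 0 of the 33 members was it called by edgeR's quasi-likelihood test, against 0.0411% of all tested genes, and DESeq2 also called 0, against 2.08%. At an unadjusted p under 0.05 there were 3 members, Ak4, Pfkfb3 and Bnip3, against 9.27% of all tested genes. Ak4 had the largest value, 1.01 ± 0.28 (adjusted p = 0.261), or 0.85 ± 0.27 (adjusted p = 0.337) with its copy added. In its own row Brd lay above control and NM-Brdi below NM-DMSO in every library. Pfkfb3 followed with 0.76 ± 0.24 (adjusted p = 0.321), and Bnip3 had 0.41 ± 0.17 (adjusted p = 0.502), or 0.22 ± 0.17 (adjusted p = 0.691) with its copies added. For Epas1 and Egln3 the differences between the pairs, 0.35 ± 0.33 (adjusted p = 0.73) and 0.33 ± 0.32 (adjusted p = 0.741), were of the size of their SE. With a single NM-DMSO library, and the spread taken from the other groups, more was called over all genes too. Without NM-DMSO replicate 1, 2 members were higher, Ak4 (1.08) and Pfkfb3 (0.98), and 4 lower, Tpi1, Pgk1, Pgam1 and Ldha, where 9.04% of all genes were called. Without NM-DMSO replicate 2, 16 were higher and 0 lower, where 42.3% of all genes were called.

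In control against NM-DMSO, the comparison of the groups whose titles name no inhibitor, 16 of the 33 tested members were called. Vegfa, Epas1, P4ha2 and Pfkp were higher in control, and 12 were lower. The lower genes were Ak4, Ankrd37, Egln3, Pfkfb3, Pdk1 and 7 enzymes of the glycolytic chain, namely Gpi1, Pfkm, Aldoa, Tpi1, Eno1, Pkm and Ldha. Over all tested genes 12.0% were higher and 11.5% lower. The median of the members was -0.34, against -0.02 over all tested genes. Both control libraries lay above both NM-DMSO libraries for 7 members and below them for 19, and 33.8% and 34.4% of all tested genes did so. These values share the control and NM-DMSO libraries with the comparisons above.

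Vegfa was 2.95-fold higher in control, with 169 and 164 CPM in control against 51.7 and 61.3 CPM in NM-DMSO and a log2 fold change of 1.56 ± 0.11 (adjusted p = 0.000213). Epas1 was 2.79-fold higher, a value of 1.48 ± 0.24 (adjusted p = 0.00757). P4ha2 and Pfkp were higher by 0.49 ± 0.10 (adjusted p = 0.0197) and 0.54 ± 0.12 (adjusted p = 0.021). Pfkp had 26.7 and 27.5 CPM in the Brd libraries, 27.0 and 30.1 CPM in control, 23.5 and 22.2 CPM in NM-Brdi, and 20.2 and 19.3 CPM in NM-DMSO, and its exons share 748 nt with Pitrm1 on the other strand, which held 3123 counts against 3959 for Pfkp.

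Ak4 was the most changed member, 5.96-fold lower in control, with 3.86 and 6.01 CPM in control against 27.6 and 31.0 CPM in NM-DMSO and a log2 fold change of -2.58 ± 0.21 (adjusted p = 0.000373). Its 1 copy, when added, gave -2.40 ± 0.20 (adjusted p = 0.000398). Ankrd37 was lower, at -1.63 ± 0.47 (adjusted p = 0.0436), Pfkfb3 at -1.26 ± 0.17 (adjusted p = 0.00326), Egln3 at -1.15 ± 0.23 (adjusted p = 0.0171) and Pdk1 at -0.52 ± 0.10 (adjusted p = 0.0164). Epas1 and Vegfa on one side and Egln3, Ak4 and Pfkfb3 on the other are all known HIF-linked genes, and they did not move in one direction here. Hif1a, Egln1, Car9, Bnip3, Ndrg1, P4ha1, Slc2a1, Hk1 and Hk2 were not called, with fold changes from -0.35 in Bnip3 to 0.34 in Car9.

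**Figure D4:**
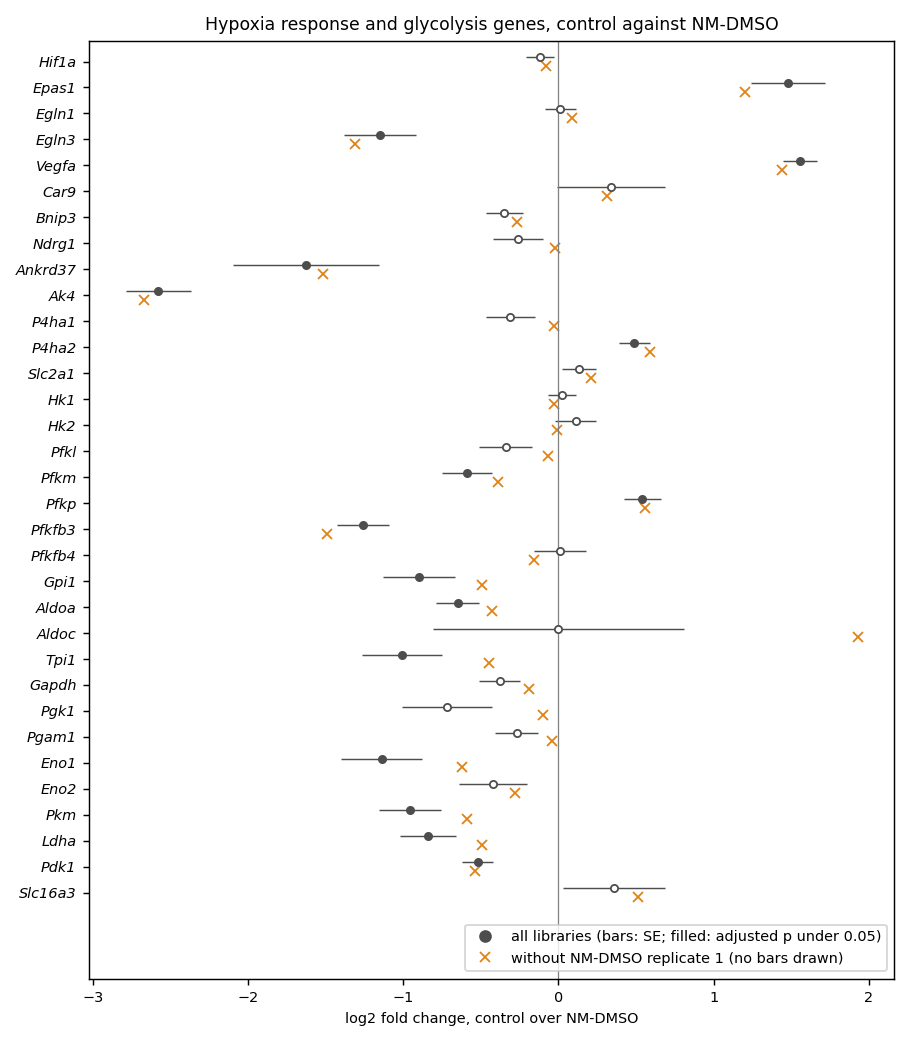
Log2 fold change of each tested member in control over NM-DMSO with all libraries (circles with SE, filled where the adjusted p was under 0.05) and without NM-DMSO replicate 1 (crosses). Vegfa moved little, at 1.56 and 1.44, and Ak4 at -2.58 and -2.67, while the crosses of Gpi1, Tpi1, Pgk1, Eno1, Pkm and Ldha lie closer to 0 than their circles.

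The lower glycolytic enzymes were uneven between the NM-DMSO libraries. Pkm, pyruvate kinase, had 299 and 276 CPM in the Brd libraries, 298 and 295 CPM in control, 431 and 431 CPM in NM-Brdi, and 711 and 444 CPM in NM-DMSO, and Tpi1 had 133 and 139 CPM in the Brd libraries, 154 and 151 CPM in control, 246 and 242 CPM in NM-Brdi, and 408 and 209 CPM in NM-DMSO. In Eno1, enolase, the levels were 32.7 and 28.4 CPM in the Brd libraries, 35.3 and 34.1 CPM in control, 61.2 and 57.6 CPM in NM-Brdi, and 99.6 and 53.2 CPM in NM-DMSO. In each of these genes NM-DMSO replicate 1 was the highest of the 8 libraries, while NM-DMSO replicate 2 was closer to the NM-Brdi libraries than to NM-DMSO replicate 1. Control was lower, at -1.14 ± 0.26 (adjusted p = 0.0241) in Eno1, -1.01 ± 0.26 (adjusted p = 0.0334) in Tpi1, -0.96 ± 0.20 (adjusted p = 0.0172) in Pkm and -0.84 ± 0.18 (adjusted p = 0.0207) in Ldha. Without NM-DMSO replicate 1 these became -0.62, -0.45, -0.59 and -0.49. Gpi1, Pfkm and Aldoa, at -0.90 ± 0.23 (adjusted p = 0.0311), -0.59 ± 0.16 (adjusted p = 0.036) and -0.65 ± 0.14 (adjusted p = 0.0223), became -0.49, -0.39 and -0.43. Pfkm had 24.8 and 24.8 CPM in the Brd libraries, 21.5 and 24.0 CPM in control, 29.4 and 25.3 CPM in NM-Brdi, and 38.4 and 29.8 CPM in NM-DMSO, so its control and NM-DMSO libraries did not overlap.

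With the counts of the copies added, 4 members were higher and 12 lower, where 11.9% and 11.5% of all genes were, and the differences were smaller than in the own rows for Eno1, Tpi1, Pkm and Ldha and larger for Aldoa. Summed over the gene and its copies, Pkm had 1349 and 1254 CPM in the Brd libraries, 1319 and 1294 CPM in control, 1738 and 1688 CPM in NM-Brdi, and 1874 and 1785 CPM in NM-DMSO. The NM-DMSO libraries were closer to each other on this scale, and control was lower, at -0.49 ± 0.09 (adjusted p = 0.0141). Summed Eno1 had 569 and 560.3 CPM in the Brd libraries, 627 and 610.3 CPM in control, 923 and 846 CPM in NM-Brdi, and 939.8 and 803 CPM in NM-DMSO, a difference between control and NM-DMSO of -0.49 ± 0.11 (adjusted p = 0.0222). Summed Ldha had 689 and 694 CPM in the Brd libraries, 935 and 912 CPM in control, 1119 and 1108 CPM in NM-Brdi, and 1428 and 1220.3 CPM in NM-DMSO, a difference of -0.52 ± 0.10 (adjusted p = 0.0163), and its order over the groups, lowest in Brd and highest in NM-DMSO, was the same as in its own row. Tpi1 and Aldoa gave -0.87 ± 0.21 (adjusted p = 0.0278) and -0.81 ± 0.18 (adjusted p = 0.0239). Gapdh gave -0.32 ± 0.12 (adjusted p = 0.0785), Pgk1 -0.08 ± 0.09 (adjusted p = 0.542) and Pgam1 0.03 ± 0.09 (adjusted p = 0.778), none of them called, and Bnip3, at -0.35 ± 0.12 (adjusted p = 0.0665) in its own row, gave -0.07 ± 0.12 (adjusted p = 0.694).

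**Figure D5:**
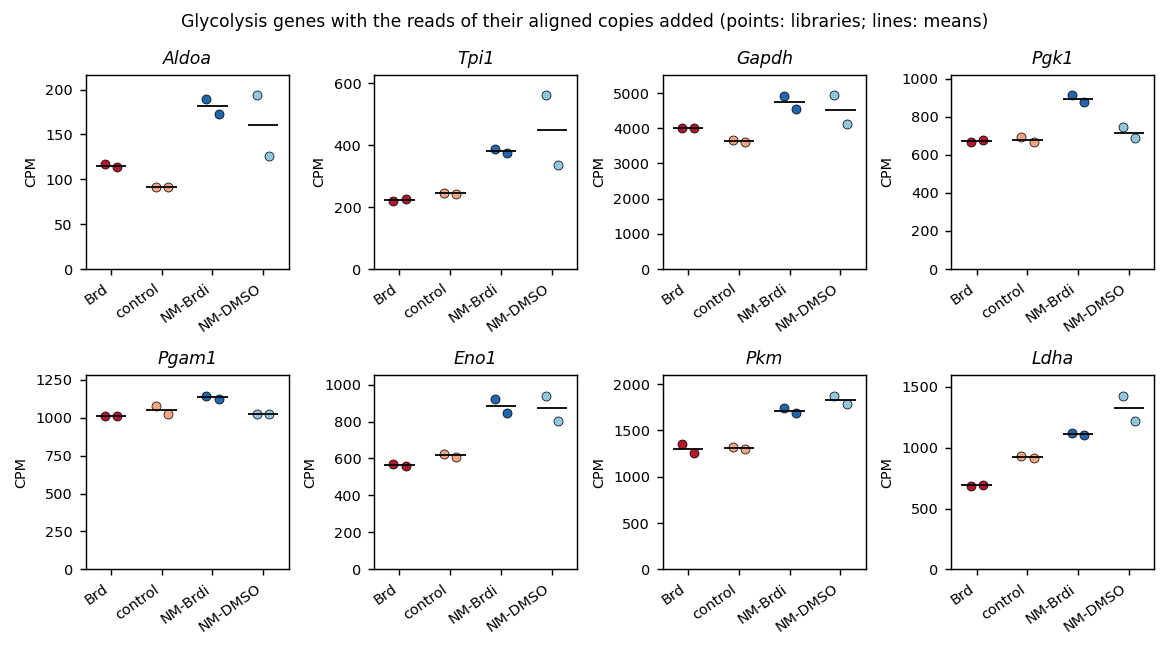
Level (CPM, linear scale from 0) of 8 glycolysis genes after the counts of their aligned copies were added, points for libraries with replicate 1 at the left and lines for group means. Eno1, Pkm and Ldha stood lower in Brd and control than in the NM groups, with Ldha lowest in Brd at 689 and 694 CPM, and Pgam1 stood between 1009 and 1146 CPM in all libraries.

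Only Vegfa and Ak4 were called in each of the 8 fits that left out 1 library, with ranges of 1.44 to 1.69 and -2.92 to -2.28. Without any single Brd, control or NM-Brdi library most calls over all genes of the table were lost, and fewer members were called. The counts were 1 higher and 2 lower without control replicate 1, and 2 higher and 1 lower without control replicate 2. They were 2 higher and 5 lower without any 1 of the Brd or NM-Brdi libraries, 4 higher and 12 lower without NM-DMSO replicate 1, and 4 higher and 20 lower without NM-DMSO replicate 2. In the fits with a single NM-DMSO library, whose spread comes from the other groups, 34.5% of all genes were called without replicate 1 and 63.9% without replicate 2. Epas1 lost its call without control replicate 1, Pfkfb3 without control replicate 2, and Egln3, Pkm and Pdk1 without either control library. Ankrd37, P4ha2, Pfkm, Pfkp, Gpi1, Aldoa, Tpi1, Eno1 and Ldha lost theirs without any single Brd, control or NM-Brdi library. In a fit of the control and NM-DMSO libraries alone, 1 member was higher, Vegfa, and 1 lower, Ak4. Over all genes 371 were called in that fit, against 3988 with all 8 libraries.

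In Brd against NM-Brdi, the groups named for the inhibitor, 4 members were higher and 4 lower, beside 6.73% and 3.77% of all tested genes. Vegfa, Epas1, P4ha2 and Car9 were higher in Brd, and Ak4, Ldha, Aldoa and Pdk1 were lower. Vegfa was 2.98-fold higher (1.58 ± 0.11, adjusted p = 0.000243) and Epas1 3.56-fold higher (1.83 ± 0.22, adjusted p = 0.00266). P4ha2 and Car9 gave 0.61 ± 0.10 (adjusted p = 0.0108) and 1.16 ± 0.30 (adjusted p = 0.0496). Ak4 was lower, at -1.57 ± 0.20 (adjusted p = 0.00315), Ldha at -0.88 ± 0.18 (adjusted p = 0.0223), Aldoa at -0.60 ± 0.14 (adjusted p = 0.0392) and Pdk1 at -0.48 ± 0.10 (adjusted p = 0.0259). Bnip3 and Ndrg1 were not called here, at 0.06 ± 0.12 (adjusted p = 0.779) and 0.17 ± 0.16 (adjusted p = 0.543).

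These libraries share nothing with control and NM-DMSO, so the values of the 2 comparisons can be read side by side: Vegfa at 1.58 and 1.56, Epas1 at 1.83 and 1.48, P4ha2 at 0.61 and 0.49, and Ak4 at -1.57 and -2.58. Their difference is the interaction given above. Both libraries of Brd lay above both of NM-Brdi for 9 members and below for 19, and 36.0% and 35.7% of all tested genes did so. With copies added, 4 members were higher and 6 lower, where 6.72% and 3.74% of all genes were. Eno1 (-0.65 ± 0.11), Pgk1 (-0.41 ± 0.09) and Pkm (-0.40 ± 0.09) were then called lower, and Aldoa was not.

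Single libraries weighed on this comparison too. Without any single Brd, NM-Brdi or control library fewer genes were called over the whole table, and fewer members. The counts were 2 higher and 1 lower without Brd replicate 1, 2 and 0 without Brd replicate 2, 2 and 1 without NM-Brdi replicate 1, 1 and 1 without NM-Brdi replicate 2, and 3 and 1 without either control library. Without NM-DMSO replicate 1 they were 6 and 15, where 43.7% of all genes were called, and without NM-DMSO replicate 2 they were 6 and 14, where 43.5% were. Vegfa was called in all of these fits. Ak4 lost its call without Brd replicate 2 (adjusted p = 0.0523), and Epas1 without NM-Brdi replicate 2 (adjusted p = 0.0507). P4ha2 lost its call without any single Brd or NM-Brdi library, and Car9, Ldha, Aldoa and Pdk1 without any single Brd, control or NM-Brdi library.

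A list of 36 further genes of the HIF pathway was read beside the members, and 31 of them were tested. In Brd against control 6 were higher and 2 lower, beside 3.13% and 3.45% of all tested genes, with a median of 0.18. In NM-Brdi against NM-DMSO 13 had an unadjusted p under 0.05, beside 21.6% of all tested genes, and the median was also 0.18, against 0.00 over all tested genes in both comparisons. Plod2, a collagen lysyl hydroxylase, had 380.1 and 359 CPM in the Brd libraries and 181 and 182 CPM in control, a difference of 1.03 ± 0.11 (adjusted p = 0.00332). Bnip3l, a relative of Bnip3 that also acts in the removal of mitochondria, had 102 and 99.8 CPM in the Brd libraries and 62.8 and 63.1 CPM in control, a difference of 0.68 ± 0.09 (adjusted p = 0.00804), and has a pseudogene copy with 9382 counts against its own 15547. Bhlhe40, a transcriptional repressor induced by hypoxia, was lower, with 24.0 and 25.9 CPM in the Brd libraries and 63.5 and 59.3 CPM in control, a difference of -1.30 ± 0.12 (adjusted p = 0.00249). The other lower gene was Hif3a, an alpha subunit named here after its values were seen, with 3.54 and 3.56 CPM in the Brd libraries and 10.3 and 13.3 CPM in control.

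Hif3a had 0 counts in all 4 NM libraries. Against a floor of 3 counts over the group, it was at least 167-fold higher in control than in NM-DMSO and at least 60.7-fold higher in Brd than in NM-Brdi. In control against NM-DMSO 8 of this list were higher and 4 lower, beside 12.0% and 11.5% of all tested genes. The higher genes included the nuclear receptor gene Rora (2.07) and the collagen cross-linking oxidase Lox (1.20). In Brd against NM-Brdi, where 6.73% of all tested genes were higher and 3.77% lower, 8 were higher, with Lox at 1.77 and Plod2 at 1.16, and 1 was lower, Bhlhe40 at -1.48.

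Of 31 further genes of glucose and pyruvate use, 22 were tested. Eno3, the muscle enolase, was the 1 gene of this list called in Brd against control and also the 1 called in NM-Brdi against NM-DMSO. It had 4.82 and 4.37 CPM in the Brd libraries, 22.2 and 22.4 CPM in control, 5.06 and 4.57 CPM in NM-Brdi, and 15.8 and 14.0 CPM in NM-DMSO. It was lower in Brd than in control, at -2.28 ± 0.15 (adjusted p = 0.00104) and lower also in NM-Brdi relative to NM-DMSO, at -1.63 ± 0.15 (adjusted p = 0.00704), while the members Eno1 and Eno2 were not called in either pair. In control against NM-DMSO 2 of the list were higher and 6 lower, beside the same 12.0% and 11.5% of all tested genes. Pdk4, another kinase of the pyruvate dehydrogenase complex, had 167 and 162 CPM in the Brd libraries, 142 and 130.5 CPM in control, 52.7 and 47.7 CPM in NM-Brdi, and 35.5 and 50.9 CPM in NM-DMSO, and control exceeded NM-DMSO by 1.66 ± 0.17 (adjusted p = 0.000968), the opposite direction to Pdk1. Tkt, transketolase of the pentose phosphate pathway, was lower, at -0.84 ± 0.13 (adjusted p = 0.00669), and the lactate transporter Slc16a1 at -0.52 ± 0.10 (adjusted p = 0.0125). In Brd against NM-Brdi Pdk4 was higher by 1.71 ± 0.17 (adjusted p = 0.00105) and Tkt lower, at -0.65 ± 0.13 (adjusted p = 0.0214).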

How the data were processed

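RNA was extracted with Trizol and sequenced from 8 libraries of MC3T3-E1 cells, 2 in each of 4 groups, grouped by title. The authors deposited raw counts per gene in 1 table. The submitters' processing notes name featureCounts 2.0.3, STAR 2.7.10a, Trimmomatic 0.39 and FastQC 0.11.9, and builds GRCm38 and GRCh38. Not given in the sources used here: strand setting, annotation, and the handling of reads that match more than 1 place.

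The deposited counts were scaled with TMM, filtered with filterByExpr and fitted for all genes and all 8 libraries in edgeR 4.0.16 with its quasi-likelihood test in R 4.3.3, without covariates, with Benjamini-Hochberg adjustment over the 17038 genes tested. The library totals of 16918182 to 24555028 counts set the precision of low genes. Alternatives were the Wald test and the size factors of DESeq2 1.42.0, no filter, the libraries of a comparison alone, the replicate number as a block, each library left out, and copies summed. Copies were found by BLAST 2.17.0 against GENCODE M21 transcripts (at least 200 aligned bases, 95% identity). The scripts were tested on simulated data. The members and the lists of other genes were chosen with earlier results of these data known. Library values were given in full for a fixed set of members (the HIF subunits and sensors, the main targets, and the entry and lactate steps) and for every other member called in at least 1 comparison, and from each other list up to 4 called genes with the smallest p per comparison were named, with Hif3a in Brd against control as an exception. A gene of these lists is not reported here.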

Additional observations from a re-analysis of the deposited data

How the results depend on the processing

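With DESeq2's size factors in place of TMM, all 165 member values kept their side of the threshold, and none of the called ones changed direction. DESeq2's Wald test left 157 on their side of the threshold and made 8 further calls. Values to which DESeq2 gave no adjusted p were counted as not called. No setting of scale moved the median over all tested genes by over 0.05.

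Of all tested genes, 1121 were called in Brd against control, 1848 with no filter and 6413 with the libraries of the pair alone. In NM-Brdi against NM-DMSO 318 were called, against 928 with DESeq2, 2453 with no filter, 0 with the pair alone and 188 with the replicate number as a block. The interaction called 7, against 299 with DESeq2 and 608 with no filter. In control against NM-DMSO 3988 were called, against 6274 with no filter and 371 alone. In Brd against NM-Brdi 1789 were called, against 3198 with no filter and 7215 alone. Among members, Brd against control gave 16 higher and 3 lower alone, and 1 lower with no filter, where Pdk1 lost its call. NM-Brdi against NM-DMSO gave 2 higher with DESeq2, and 2 higher and 2 lower with no filter. The interaction gave 1 higher with no filter. Control against NM-DMSO gave 1 higher and 1 lower alone. Brd against NM-Brdi gave 8 lower with DESeq2, 11 lower with no filter and 14 lower alone. The cause of these shifts was not tested.

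Leaving out 1 library leaves its group with a single library, assumed to vary like the other groups. It gave 36 to 5539 called genes in Brd against control, 8 to 9577 in NM-Brdi against NM-DMSO, 0 to 7458 in the interaction, 556 to 11265 in control against NM-DMSO and 396 to 7691 in Brd against NM-Brdi. The members called higher ranged from 0 to 14, 0 to 10, 0 to 16, 1 to 4 and 1 to 6 in these comparisons, and those called lower from 0 to 3, 0 to 8, 0 to 4, 1 to 20 and 0 to 15. Over these omissions Tpi1 ranged from -0.74 to 0.23 and Pgk1 from -0.59 to 0.46 in NM-Brdi against NM-DMSO. In the interaction Tpi1 ranged from -0.40 to 0.58, Pgk1 from -0.47 to 0.60, Pgam1 from -0.25 to 0.19 and Ldha from -0.40 to 0.24. The ends of these ranges, and the reversals, came without NM-DMSO replicate 1 or replicate 2.

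Deviations of libraries with the same replicate number correlated from -0.0125 to 0.21, the highest value being that of NM-Brdi with NM-DMSO. Whether the numbers pair the libraries cannot be told from these values. With the number as a block, 970, 188, 5, 3753 and 1550 genes were called in the 5 comparisons in the order above. Members called were 4 higher in Brd against control, without Egln3 and Pdk1, 4 higher and 11 lower in control against NM-DMSO, and 3 higher and 5 lower in Brd against NM-Brdi. Summing aligned copies was chosen after seeing the data. With 2 libraries per group, small differences and genes under 1 CPM could not be resolved.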
